A study of Mus musculus with 10 samples.

Results

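The 9 genes described here encode digestive enzymes anchored in, or attached to, the brush border of the small intestine: the peptidases Anpep, Enpep, Ace, Dpp4, Mep1a and Mep1b, the activating protease Tmprss15, and the disaccharidases Lct and Treh. A gene was read from the probe sets that the platform annotation assigns to that gene alone, and where there was more than 1, from the one that read highest on average across the 10 arrays. All 9 listed genes had such a probe set, among 12393 genes measured in the same way. Ace and Dpp4 had a second, dimmer probe set, which is given beside the first.

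The brush border is the carpet of microvilli on the apical face of absorptive cells, and its membrane carries the enzymes that finish digestion. Peptides left by gastric and pancreatic proteases are trimmed there to amino acids and short peptides, and disaccharides are split to single sugars, which neighbouring carriers then take up. These enzymes are standard markers of enterocytes, which form as progenitors leave the crypt and climb the villus. Notch signalling in the crypt, which acts through the DNA-binding protein RBPJ, restrains the transcription factor ATOH1, and cells in which ATOH1 is active become secretory.

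RNA came from small intestinal epithelium of C57BL/6 mice, with 2 arrays in each of 5 groups. Stem cells (ISC) were sorted by green fluorescence from Lgr5-eGFP-Cre mice. Secretory progenitors were crypt epithelium from mice with Rbpj deleted (Rbpj Sec-Pro) or from mice given dibenzazepine, a Notch inhibitor (DBZ Sec-Pro). Enterocyte progenitors (Ent-Pro) were crypt epithelium, and enterocytes (ENT) villus epithelium, of Atoh1-/- mice, described in the labels as having no secretory cells. Per the labels' protocols, crypts were freed of villi by hand and released in 5 mM EDTA over 50 min, and villus cells were released in 5 mM EDTA over 25 min. Age, drug dose and the Cre that deleted Rbpj or Atoh1 are not given in the sources used here. Whether the 2 arrays of a group represent different mice is not stated in the labels. The spread behind every p-value is therefore that between these arrays and may be technical. ISC were the only sorted cells, and Ent-Pro and ENT the only groups with an Atoh1 deletion, so sorting or genotype cannot be told apart from the groups that carry them.

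Values are log2 expression as deposited, ranging from 2.90 to 15.18 over all probe sets, and differences are log2 fold changes with standard errors (SE) from limma over all 10 arrays. A gene was called where its Benjamini-Hochberg adjusted p, taken over all 12393 genes of the comparison, was under 0.05. Arrays of a group correlated across genes with r from 0.982 to 0.995. The targeted genes followed the labels: Atoh1 read 4.97 to 5.78 in Ent-Pro and ENT against 7.68 to 11.85 elsewhere, and Rbpj was lowest in Rbpj Sec-Pro, at 6.62 and 6.74. It reached at most 7.21 in ENT and read 8.07 to 8.31 in the other groups. Lgr5 was highest in ISC, at 11.36 and 11.06. The mean of 7 measured enterocyte markers (Fabp1, Fabp2, Apoa1, Apoa4, Vil1, Krt20 and Slc5a1, of which Vil1 and Slc5a1 recur in lists below) was 11.27 and 11.32 in ISC, 13.20 to 14.31 in the crypt groups and 14.39 and 14.40 in ENT. The Sec-Pro crypts therefore carried enterocyte marker RNA, besides a mean of 13.11 to 13.56 over 6 goblet cell markers that lay at 6.13 to 6.43 in Ent-Pro and ENT. Not every secretory marker was low in the Atoh1-/- groups: the Paneth cell gene Lyz1 read 10.31 and 11.15 in Ent-Pro and 8.22 and 11.10 in ENT, against 14.57 to 15.05 elsewhere. The mean of 4 tuft cell markers was 10.19 and 9.57 in ENT, 6.40 and 5.79 in Ent-Pro, and 6.55 to 9.60 in the other groups. In such bulk samples, fewer cells of a type and less RNA per cell cannot be told apart.

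The DNA just upstream of 4 of the genes is shown because these genes took 4 different courses over the 5 groups. Anpep was raised in every group over ISC, Treh was highest on the villus, above every crypt group, Tmprss15 was high in 2 groups only, and Lct showed no called difference between ENT and any crypt group. Each sequence is the last 150 bases before the gene's start in RefSeq (GRCm38.p6), written 5′ to 3′ on the strand of the gene. Capitals mark letters that match short motifs of 4 factor families known to act on intestinal promoters, searched on both strands. For HNF1 the letters were GTTAAT, which make up part of its site. For HNF4 they were CAAAGT, again only part of the full site that this receptor binds. The CDX homeodomain proteins were searched by TTTATG, and the zinc finger proteins of the GATA family by the letters AGATAA. The stretches are chr7:79848211-79848360 (minus strand) for Anpep, chr9:44673083-44673232 (plus strand) for Treh, chr16:79091098-79091247 (minus strand) for Tmprss15 and chr1:128328319-128328468 (minus strand) for Lct.
Anpep: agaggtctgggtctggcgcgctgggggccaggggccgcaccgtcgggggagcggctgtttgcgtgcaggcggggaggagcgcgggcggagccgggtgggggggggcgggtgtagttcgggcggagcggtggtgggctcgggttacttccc
Treh: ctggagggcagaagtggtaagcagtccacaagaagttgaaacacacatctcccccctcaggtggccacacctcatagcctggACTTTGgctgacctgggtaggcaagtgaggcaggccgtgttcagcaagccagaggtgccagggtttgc
Tmprss15: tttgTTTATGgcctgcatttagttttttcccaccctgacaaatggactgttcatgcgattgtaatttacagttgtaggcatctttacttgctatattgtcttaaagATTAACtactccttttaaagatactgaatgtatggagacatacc
Lct: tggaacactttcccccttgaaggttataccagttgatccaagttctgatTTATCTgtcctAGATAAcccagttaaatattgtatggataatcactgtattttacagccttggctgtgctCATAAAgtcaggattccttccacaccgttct

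Within these stretches Anpep held none of the 4 motifs. Treh held ACTTTG, the HNF4 letters on the opposite strand, starting at base -68 from the start of the gene. Tmprss15 held the CDX letters at -146 and ATTAAC, the HNF1 letters on the opposite strand, at -44. Lct held the GATA letters in both orientations, at -101 and -90, and CATAAA, the CDX letters on the opposite strand, at -31. Over the full 250 bases upstream, 8 of the 9 genes had an entry in the set of RefSeq promoters used here, which held none for Mep1b. They gave 9 windows because Ace has 2 starts, and 7 of the 9 windows held at least 1 motif. Of all 32851 RefSeq windows of 250 bases, 32.6% did: 6.43% held the HNF1 letters, 12.6% the HNF4 letters, 10.8% the CDX letters and 9.99% the GATA letters. The HNF4 letters stood in 4 of the 9 windows, those of Treh, Mep1a and both of Ace. Base composition differed widely, with G and C making up 72.8% of the 250 bases of Anpep and 34% of those of Tmprss15, around a median of 52.4% over all windows. A match is a description of the letters and shows no binding.

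Against ISC, crypt enterocyte progenitors already held far more RNA of most of the 9 enzymes. In Ent-Pro against ISC 7 of the 9 rose, by 2.26-fold (Dpp4) to 12.3-fold (Enpep), and 0 fell, where 12.1% of all genes tested rose and 13.5% fell. The median of the 9 log2 differences was 2.63, against -0.02 over all genes. Mep1a and Tmprss15 did not pass. On the villus the levels were higher again: in ENT against Ent-Pro 7 of the 9 rose and 0 fell, with 18.5% of all genes rising and 20.2% falling, and the median was 1.40 against 0.02. The genes outside the call here were Enpep and Lct. Markers of other cells rose in the same comparison, 4 of 4 tuft cell markers (median 3.74) and 6 of 9 T cell markers (median 1.81), and their part in the rise of the 9 genes was not tested. Over the whole span, in ENT against ISC, all 9 rose and 0 fell, where 22.3% of all genes rose and 26.8% fell, with a median of 3.90 against -0.01. These comparisons share arrays, so their values are set side by side and not as separate evidence.

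**Figure D1:**
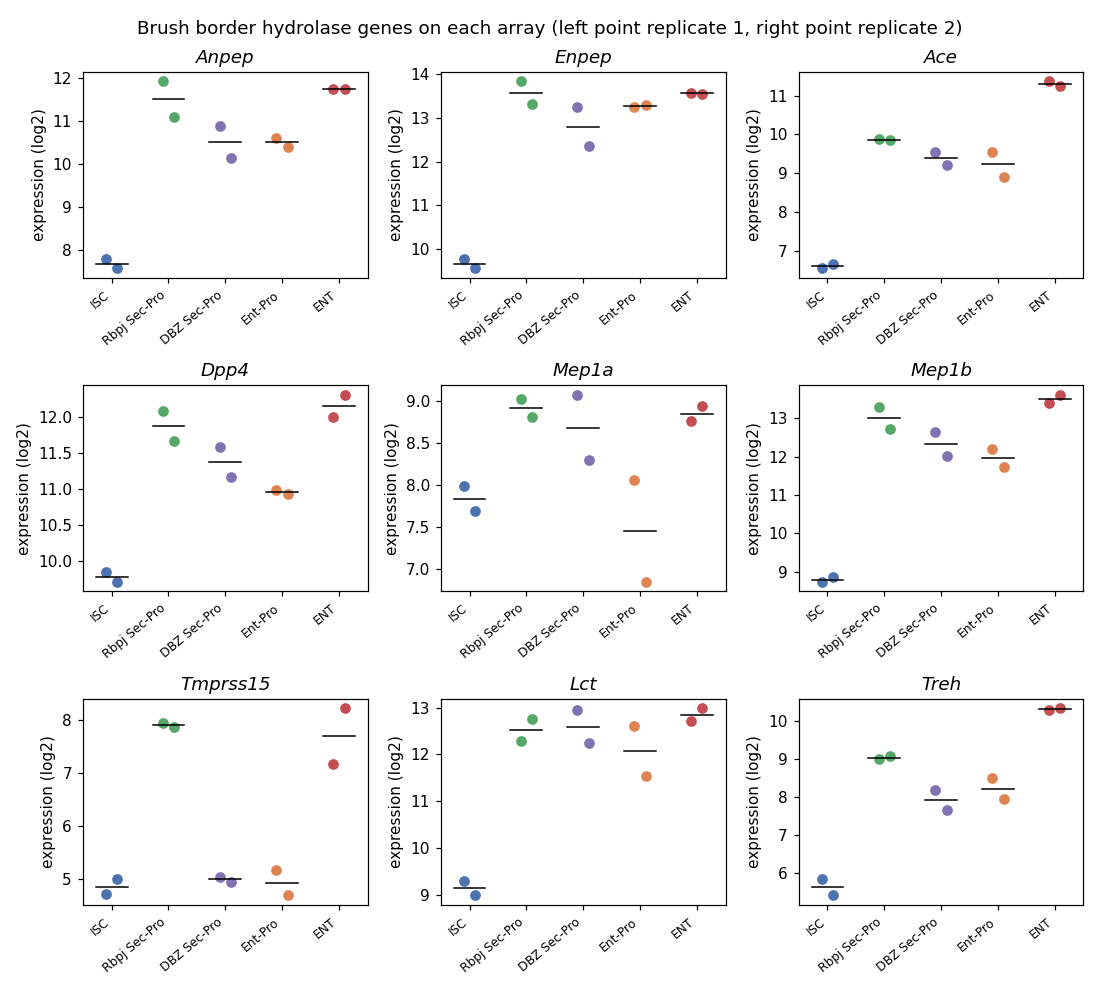
Expression (log2, vertical axis) of each of the 9 genes on each array, in 9 panels with the 5 groups along the horizontal axis and 1 point per array. The ISC points lie below all others for Anpep, Ace, Enpep, Mep1b, Treh, Dpp4 and Lct, whereas for Tmprss15 the ISC, DBZ Sec-Pro and Ent-Pro points lie together between 4.70 and 5.18.

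Anpep encodes aminopeptidase N, which takes neutral amino acids off the end of peptides. It read 7.79 and 7.58 in ISC, 10.61 and 10.40 in Ent-Pro, 10.88 and 10.15 in DBZ Sec-Pro, 11.92 and 11.09 in Rbpj Sec-Pro, then 11.73 and 11.74 in ENT. Both ISC arrays lay far below all the others, and the ENT arrays lay within the spread of Rbpj Sec-Pro. Ent-Pro exceeded ISC by 2.83 ± 0.29 (SE; 7.09-fold, adjusted p = 4e-04) and ENT exceeded Ent-Pro by 1.23 ± 0.29 (2.35-fold, adjusted p = 0.0093). The second of these calls was lost without Ent-Pro replicate 2 (1.13, adjusted p = 0.062). Among neighbours in the order ISC, Ent-Pro, DBZ Sec-Pro, Rbpj Sec-Pro, ENT, only ISC and Ent-Pro differed by the test.

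Enpep encodes glutamyl aminopeptidase, which removes acidic amino acids. Its log2 values were 9.77 and 9.56 in ISC, 13.24 and 12.36 in DBZ Sec-Pro, 13.26 and 13.30 in Ent-Pro, 13.58 and 13.55 in ENT, and 13.84 and 13.32 in Rbpj Sec-Pro. The step between ISC and the crypt groups held nearly the whole range of the gene. Ent-Pro exceeded ISC by 3.62 ± 0.27 (12.3-fold, adjusted p = 9.9e-05), which ranked 16 from the highest of 12393 genes in that comparison. ENT exceeded Ent-Pro by 0.28 ± 0.27 (adjusted p = 0.47), so a rise from crypt to villus was not shown for Enpep.

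Ace encodes angiotensin-converting enzyme, a peptidase of the brush border that is also known from endothelium. It read 6.54 and 6.65 in ISC, 9.55 and 8.90 in Ent-Pro, 9.54 and 9.22 in DBZ Sec-Pro, 9.87 and 9.85 in Rbpj Sec-Pro, then 11.37 and 11.24 in ENT. The villus arrays stood above every crypt array. Ent-Pro exceeded ISC by 2.63 ± 0.21 (6.18-fold, adjusted p = 0.00012), ENT exceeded Ent-Pro by 2.08 ± 0.21 (4.23-fold, adjusted p = 0.00012), and ENT exceeded ISC 26.2-fold (adjusted p = 1.9e-06). The dimmer Ace probe set read 6.35 and 6.36 in ISC, 7.12 and 6.62 in Ent-Pro, and 8.96 and 8.71 in ENT. By that probe set ISC was exceeded by 2.48 in ENT, 0.83 in Rbpj Sec-Pro and 0.72 in DBZ Sec-Pro, and the difference between Ent-Pro and ISC, 0.52, did not pass (adjusted p = 0.10). Of 7 endothelial markers, Pecam1 and Tie1 were near background, within 1 of the absent control on both arrays, in every group. Tek was near background in ISC, Rbpj Sec-Pro and ENT, and the other markers in no group. The mean of the 7 lay between 4.93 and 5.14 on all arrays. In ENT 1 of the 7 was higher and 0 lower than in Ent-Pro (all genes: 18.5% and 20.2%). Against ISC it was again 1 higher and 0 lower (all genes: 22.3% and 26.8%). The part of endothelium in the Ace result was not tested.

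Dpp4 encodes dipeptidyl peptidase 4, which cuts dipeptides off after proline and is also the T cell surface antigen CD26. Of the 8 genes other than Mep1a it spanned the least from ISC to ENT (2.37 ± 0.19, 5.18-fold), reading 9.85 and 9.71 in ISC, 10.99 and 10.93 in Ent-Pro, 11.59 and 11.16 in DBZ Sec-Pro, 12.07 and 11.67 in Rbpj Sec-Pro, then 12.00 and 12.31 in ENT. The differences were 1.18 ± 0.19 for Ent-Pro against ISC (2.26-fold, adjusted p = 0.0027) and 1.20 ± 0.19 for ENT against Ent-Pro (2.29-fold, adjusted p = 0.0012). The dimmer Dpp4 probe set showed little of the first step, reading 6.97 and 6.53 in ISC and 6.79 and 6.84 in Ent-Pro (0.07, adjusted p = 0.90), and 7.49 and 7.88 in ENT. Neither did it pass in Rbpj Sec-Pro against ISC (0.34, adjusted p = 0.26). T cell markers moved with Dpp4, as with other members. With their mean, r over 10 arrays was 0.894 for Dpp4, 0.857 for Mep1b, 0.845 for Anpep, 0.810 for Ace and 0.677 (Tmprss15) to 0.769 (Treh) for the rest. Without ISC it was 0.765 for Dpp4 and 0.202 (Enpep) to 0.704 (Mep1b) for the others. With the mean of the 7 enterocyte markers, r over 10 arrays was 0.957 for Dpp4, 0.990 for Mep1b, 0.994 for Anpep and 0.958 for Ace. It was 0.527 for Mep1a, against 0.694 with T cell markers, and 0.675 for Tmprss15. Without ISC, r with the enterocyte mean ran from 0.466 (Lct) to 0.967 (Anpep). It was then 0.876 for Dpp4, 0.902 for Tmprss15 and 0.563 for Mep1a, the last against 0.683 with T cell markers. The mean of the 9 T cell markers was 5.26 and 5.55 in ISC, 6.31 and 6.22 in Ent-Pro, 7.19 and 7.88 in DBZ Sec-Pro, 8.62 and 6.89 in Rbpj Sec-Pro, then 7.79 and 8.02 in ENT. In ENT 6 of these 9 markers rose over Ent-Pro (all genes: 18.5%), while Cd2 and Cd8b1 were near background in ENT. Their part in the Dpp4 result was not tested.

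Meprins are zinc proteases made of an alpha chain (Mep1a) and a membrane-anchored beta chain (Mep1b). Mep1b read 8.74 and 8.86 in ISC, 12.20 and 11.73 in Ent-Pro, 12.65 and 12.00 in DBZ Sec-Pro, 13.29 and 12.72 in Rbpj Sec-Pro, then 13.38 and 13.61 in ENT. It rose by 3.16 ± 0.26 from ISC to Ent-Pro (8.95-fold, adjusted p = 0.00017) and by 1.53 ± 0.26 from Ent-Pro to ENT (2.89-fold, adjusted p = 0.0017). Its partner chain followed another course. Mep1a read 7.99 and 7.68 in ISC, 8.05 and 6.84 in Ent-Pro, 9.07 and 8.29 in DBZ Sec-Pro, 9.02 and 8.81 in Rbpj Sec-Pro, then 8.76 and 8.94 in ENT. The Ent-Pro arrays lay apart from each other and on either side of the ISC arrays, and no difference between neighbours in its order of levels passed the test.

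Mep1a in Ent-Pro against ISC measured -0.39 ± 0.37 (adjusted p = 0.53), and the sign turned with 1 array left out (-0.99 to 0.22). ENT exceeded Ent-Pro by 1.40 ± 0.37 (2.64-fold, adjusted p = 0.016) and ISC by 1.02 ± 0.37 (2.02-fold, adjusted p = 0.0496). Both Mep1a calls rested on single arrays. The first gave 0.80 (adjusted p = 0.10) without Ent-Pro replicate 2, 1.50 (adjusted p = 0.051) without ENT replicate 1 and 1.31 (adjusted p = 0.079) without ENT replicate 2. The second was lost without either ISC array or either ENT array (adjusted p = 0.098 to 0.20), without either Rbpj Sec-Pro array (0.053), and in settings that changed the probe sets of other genes or the prior (0.053 to 0.057). Mep1a was the only gene of the 9 whose largest group mean, 8.92 in Rbpj Sec-Pro, stood less than 2 log2 units above its lowest, 7.45 in Ent-Pro.

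Tmprss15 encodes enteropeptidase, the protease that turns trypsinogen into trypsin and so starts the activation of pancreatic enzymes. It read 4.72 and 5.02 in ISC, 5.18 and 4.70 in Ent-Pro and 5.05 and 4.96 in DBZ Sec-Pro, but 7.94 and 7.87 in Rbpj Sec-Pro, then 7.17 and 8.23 in ENT. The low groups lay 0.95 to 1.48 above the absent control probe set, which read 3.62 to 3.82, so a level near the detection limit cannot be separated from no transcript there, and folds against these groups may understate the change. Ent-Pro and ISC differed by 0.07 ± 0.31 (adjusted p = 0.90), whereas ENT exceeded Ent-Pro by 2.76 ± 0.31 (6.76-fold, adjusted p = 2e-04) and ISC by 2.83 ± 0.31 (7.11-fold, adjusted p = 7.6e-05). By its group means Tmprss15 was thus low in ISC, Ent-Pro and DBZ Sec-Pro and high in ENT and Rbpj Sec-Pro, and only the step between DBZ Sec-Pro and ENT separated neighbours in that order.

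Lct encodes lactase, which splits lactose into glucose and galactose. It read 9.29 and 8.98 in ISC, 12.62 and 11.53 in Ent-Pro, 12.28 and 12.76 in Rbpj Sec-Pro, 12.94 and 12.25 in DBZ Sec-Pro, and 12.71 and 12.99 in ENT. All crypt arrays stood at least 2 log2 units above ISC, and Ent-Pro replicate 2 was the lowest of them. Ent-Pro exceeded ISC by 2.94 ± 0.36 (7.67-fold, adjusted p = 0.00079). The difference between ENT and Ent-Pro, 0.78 ± 0.36 (adjusted p = 0.13), did not pass, and it was 1.32 (adjusted p = 0.018) when Ent-Pro replicate 1 was left out and 0.23 when replicate 2 was.

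Treh encodes trehalase, which splits trehalose, the sugar of fungi and insects, into glucose. It read 5.83 and 5.39 in ISC, and then 8.18 and 7.66 in DBZ Sec-Pro, 8.49 and 7.94 in Ent-Pro, 8.99 and 9.07 in Rbpj Sec-Pro, then 10.30 and 10.34 in ENT. Ent-Pro exceeded ISC by 2.61 ± 0.23 (6.09-fold, adjusted p = 0.00024) and ENT exceeded Ent-Pro by 2.10 ± 0.23 (4.29-fold, adjusted p = 2e-04). ENT exceeded ISC 26.1-fold (adjusted p = 2.9e-06), close to the 26.2-fold of Ace and the 25.9-fold of Mep1b. Of the 4 neighbouring pairs in the order of its levels, 3 differed by the test, the exception being DBZ Sec-Pro and Ent-Pro. The step from Ent-Pro to Rbpj Sec-Pro (0.81, adjusted p = 0.034) was lost without either Rbpj Sec-Pro array (0.091 and 0.076), without Ent-Pro replicate 2 (0.20) and with the 2 groups fitted alone (0.078).

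Placing each crypt group on the log2 scale between ISC (0%) and ENT (100%) sets the 9 genes side by side. In Ent-Pro, Enpep stood at 92.7% of the way (91.5 to 93.8% over the choices of single arrays) and Lct at 79.1% (60.7 to 97.5%). Anpep at 69.7% and Mep1b at 67.3% came next, and Ace at 55.8%, Treh at 55.4% and Dpp4 at 49.5% stood near the middle. Tmprss15 had hardly left its ISC level, at 2.58% (-14.7 to 18.9%). Mep1a had so short a span that its position, -38.1% (-149 to 34.6%), was not informative. In Rbpj Sec-Pro the 9 genes stood between 69.4% (Ace) and 107% (Tmprss15 and Mep1a). In DBZ Sec-Pro they stood between 49.0% (Treh) and 93.2% (Lct), apart from Tmprss15 at 4.78% (-2.70 to 13.4%).

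**Figure D2:**
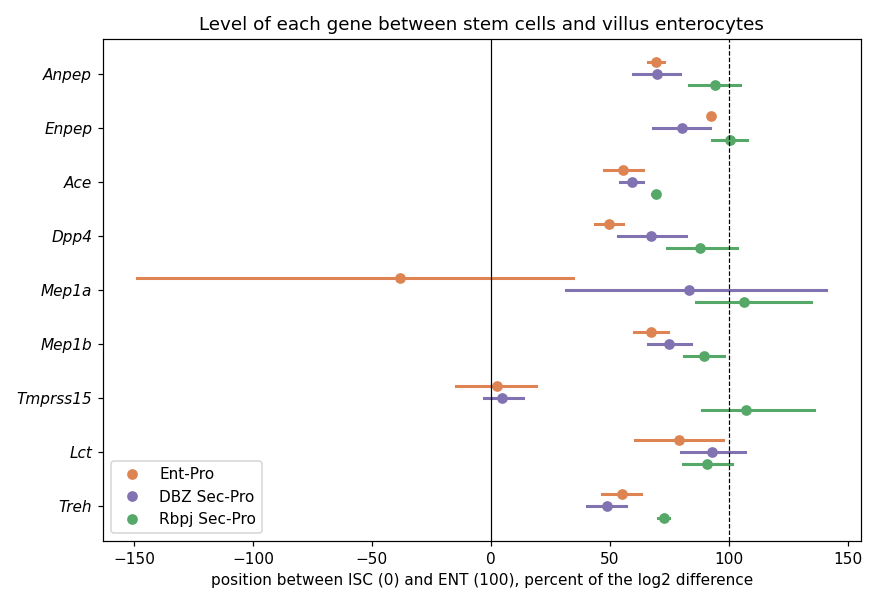
Position of each gene in Ent-Pro, Rbpj Sec-Pro and DBZ Sec-Pro as a percent of its log2 difference between ISC (0) and ENT (100), on the horizontal axis, with the 9 genes on the vertical axis. Points are group means and lines the range over the choices of 1 array per group. Tmprss15 lies near 0 in Ent-Pro and DBZ Sec-Pro and above 100 in Rbpj Sec-Pro.

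The crypts without Rbpj, classed as secretory progenitors, held more RNA of these absorptive enzymes than the crypts of enterocyte progenitors. In Rbpj Sec-Pro against Ent-Pro 7 of the 9 genes were higher and 0 lower, where 9.37% of all genes were higher and 16.9% lower, and the median difference was 0.91 against -0.12. Tmprss15 led, at 2.97 ± 0.31 (7.82-fold, adjusted p = 0.00064), with both Rbpj Sec-Pro arrays above both Ent-Pro arrays. The others were Mep1a (1.47, adjusted p = 0.023), Mep1b (1.04, adjusted p = 0.023), Anpep (1.00, adjusted p = 0.037), Dpp4 (0.91, adjusted p = 0.013), Treh (0.81, adjusted p = 0.034) and Ace (0.64, adjusted p = 0.049). Enpep (0.30, adjusted p = 0.43) and Lct (0.44, adjusted p = 0.38) did not pass.

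Apart from Tmprss15, the calls in Rbpj Sec-Pro against Ent-Pro depended on single arrays: 1 gene, Tmprss15, was called when Rbpj Sec-Pro replicate 1 or Ent-Pro replicate 2 was left out, and 4 were called when Ent-Pro replicate 1 was. Calls over all genes fell too, from 3255 of 12393 to 1459 (11.8%), 824 (6.65%) and 899 (7.25%) in the same order. The calls of Anpep and Ace were also lost without either ISC or either ENT array (adjusted p = 0.053 to 0.072), that of Ace without either DBZ Sec-Pro array (0.056), and those of Ace and Treh without Rbpj Sec-Pro replicate 2 (0.088 and 0.076). By their dimmer probe sets neither Ace (0.31, adjusted p = 0.27) nor Dpp4 (0.27, adjusted p = 0.41) passed. Rbpj Sec-Pro replicate 1 also had the highest T cell marker mean of any array (8.62) and the lower stem cell marker mean of its pair (8.06 against 9.33). Of the 7 enterocyte markers 4 were higher in Rbpj Sec-Pro than in Ent-Pro, and of the 9 T cell markers 4 were. Their part in the result was not tested.

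Crypts of mice given dibenzazepine did not differ detectably from enterocyte progenitors in these genes. Against Ent-Pro, 0 of the 9 passed in DBZ Sec-Pro, where 8.84% of all genes were higher and 9.77% lower by the same limma test. At an unadjusted p under 0.05 there was 1 of 9, Mep1a, against 32.4% of all genes. Mep1a measured 1.23 ± 0.37 (95% confidence interval 0.39 to 2.08, adjusted p = 0.051). The call depended on the arrays kept: Mep1a gave 1.84 (adjusted p = 0.011) without Ent-Pro replicate 1, and it passed at an adjusted p of 0.049 without either Rbpj Sec-Pro array, while Enpep gave -0.92 (adjusted p = 0.034) without DBZ Sec-Pro replicate 1. The other 8 differences ran from -0.48 (Enpep; interval -1.09 to 0.14) to 0.52 (Lct; interval -0.29 to 1.33). The narrowest of these intervals, that of Dpp4, went from -0.02 to 0.86, so differences of this size were not shown to be absent.

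The 2 ways of blocking the Notch pathway were set against each other directly. In DBZ Sec-Pro against Rbpj Sec-Pro 2 of the 9 genes were lower and 0 higher, where 7.08% of all genes were lower and 9.34% higher. Tmprss15 was lower by 2.90 ± 0.31 (7.49-fold as measured, adjusted p = 0.0018), a fold that may be understated because DBZ Sec-Pro read 1.24 and 1.34 above the absent control. Treh was lower by 1.11 ± 0.23 (2.16-fold, adjusted p = 0.017), with 8.18 and 7.66 against 8.99 and 9.07. The Treh call was lost without DBZ Sec-Pro replicate 2 (-0.85) and with the 2 groups fitted alone, whereas Tmprss15 passed in each setting that tested it.

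Of the remaining 7, Anpep (-0.99, adjusted p = 0.051), Enpep (-0.78, adjusted p = 0.082), Mep1b (-0.68, adjusted p = 0.11), Dpp4 (-0.50, adjusted p = 0.11) and Ace (-0.48, adjusted p = 0.14) measured below 0 without passing. The dimmer probe sets gave 0.46 for Dpp4, with the sign turned, and -0.11 for Ace. Mep1a measured -0.24 (interval -1.08 to 0.61) and Lct 0.08 (interval -0.73 to 0.89). At an unadjusted p under 0.05 there were 7 of 9, against 33.4% of all genes, and the median of the 9 was -0.68, against 0.06 over all genes. Anpep passed with cyclic loess or quantile scaling, among genes above the median level and with a trended prior (adjusted p = 0.042 to 0.048). The number called was 6 without Rbpj Sec-Pro replicate 2 and 4 without DBZ Sec-Pro replicate 1, while calls over all genes went from 2036 to 2742 (22.1%) and to 1273 (10.3%). Of the 7 enterocyte markers 4 were lower in DBZ Sec-Pro, with a median of -0.60, and their part in the difference of the 9 genes was not tested. The means of the 9 T cell markers overlapped between the groups, at 7.19 and 7.88 against 8.62 and 6.89.

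**Figure D3:**
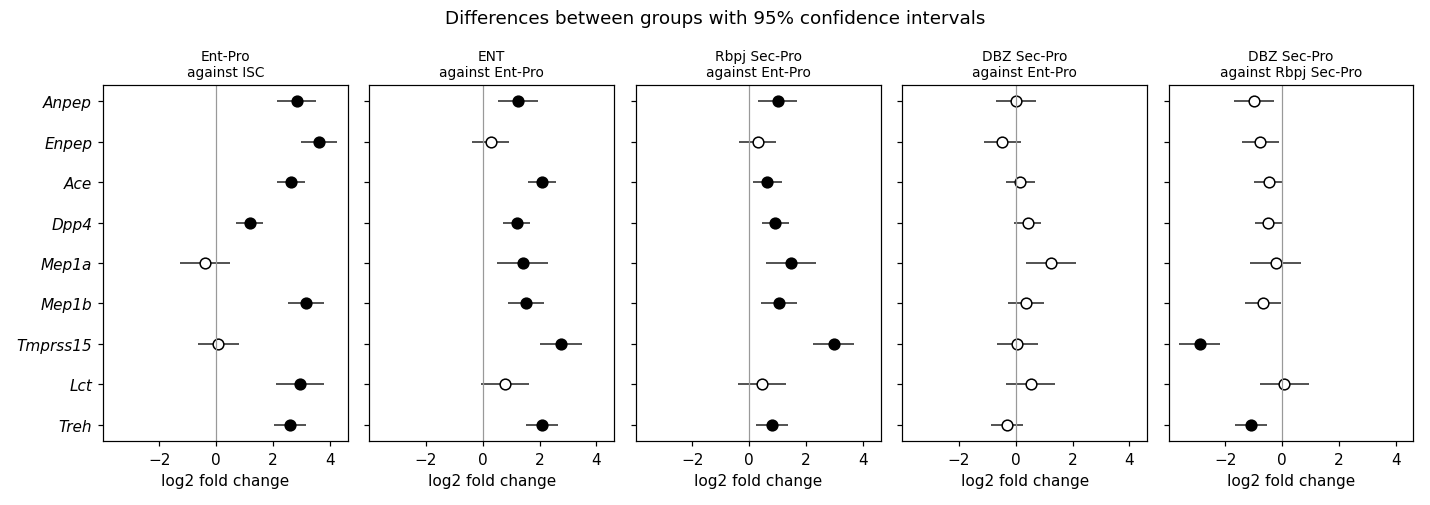
Log2 fold changes (horizontal axis) of the 9 genes (vertical axis) in the comparisons named above the panels, with 95% confidence intervals as lines. In DBZ Sec-Pro against Rbpj Sec-Pro, Tmprss15 stands at -2.90 and Treh at -1.11, and Lct, at 0.08, lies on the zero line.

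Against ISC, each secretory progenitor group held more RNA of most of the 9 enzymes. In Rbpj Sec-Pro against ISC 9 of 9 were higher, where 17.7% of all genes were higher and 29.4% lower, from 1.08 for Mep1a (adjusted p = 0.041) to 4.20 for Mep1b (18.4-fold, adjusted p = 2.3e-05). The Mep1a call was lost without any 1 of the ISC, Rbpj Sec-Pro or ENT arrays (adjusted p = 0.056 to 0.18). In DBZ Sec-Pro against ISC 7 of 9 were higher, where 15.9% of all genes were higher and 20.3% lower, and Mep1b again had the largest difference (3.52, 11.5-fold, adjusted p = 4.3e-05). Tmprss15 (0.14 ± 0.31, adjusted p = 0.76) and Mep1a (0.85 ± 0.37, adjusted p = 0.11) did not pass there, and Mep1a passed (adjusted p = 0.035) without either Ent-Pro array.

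Villus enterocytes exceeded Rbpj Sec-Pro in 2 of the 9 genes and 0 were lower, where 21% of all genes were higher and 14.8% lower: Ace by 1.44 ± 0.21 (2.72-fold, adjusted p = 0.0013) and Treh by 1.29 ± 0.23 (2.44-fold, adjusted p = 0.0037). Tmprss15 measured -0.21 ± 0.31 (adjusted p = 0.62) in ENT against Rbpj Sec-Pro, and -0.74 (adjusted p = 0.048) without ENT replicate 2. Over DBZ Sec-Pro, ENT was higher in 7 of the 9 genes, where 23.3% of all genes were higher and 21.9% lower, led by Tmprss15 (2.70, 6.48-fold, adjusted p = 0.00021) and Treh (2.40, 5.28-fold, adjusted p = 9.8e-05). Ace (1.92, adjusted p = 0.00016), Anpep (1.22, adjusted p = 0.0087), Mep1b (1.17, adjusted p = 0.0065), Dpp4 (0.78, adjusted p = 0.010) and Enpep (0.76, adjusted p = 0.047) followed. Without DBZ Sec-Pro replicate 2 the calls of Anpep, Enpep, Mep1b and Dpp4 were lost and 3 remained, those of Ace, Treh and Tmprss15, while calls over all genes went from 5590 to 3929 (31.7%). The calls of Enpep and Dpp4 were also lost without ENT replicate 2 (adjusted p = 0.13 and 0.071), and that of Enpep without either ISC or Ent-Pro array or without ENT replicate 1 (adjusted p = 0.067 to 0.14). Enpep did not pass after cyclic loess or quantile scaling (0.053 and 0.094), nor Dpp4 by its dimmer probe set (0.14, adjusted p = 0.66).

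Other hydrolases, of which 15 of 26 listed were measured, did not all belong to the brush border. Erap1, for example, acts in the endoplasmic reticulum, and Acy1 and Pepd in the cytosol. Folh1 was near background in every group, and Sis, Mgam and Alpi were among the genes not measured. In Ent-Pro against ISC 7 of 15 rose and 0 fell (all genes: 12.1% and 13.5%). They included Enpp3, a nucleotide pyrophosphatase (4.77, 27.3-fold, adjusted p = 6.1e-05), Dpep1, a membrane dipeptidase (3.58, adjusted p = 7.7e-05), Asah2, the ceramidase that digests sphingolipids (2.94), and Mme, the endopeptidase neprilysin (2.77, adjusted p = 0.0012). In ENT against Ent-Pro 8 of 15 rose and 1 fell (all genes: 18.5% and 20.2%). Dpep1 (2.58), Nt5e, an ectonucleotidase (1.80), Enpp3 (1.71) and Pm20d1 (1.55) rose most, and the 1 that fell was Erap1 (-0.69). Comparing DBZ Sec-Pro with Rbpj Sec-Pro, 3 of 15 were lower (all genes: 7.08%), Enpp3 (-1.93, adjusted p = 0.0083), Mme (-1.39, adjusted p = 0.038) and Nt5e (-1.27, adjusted p = 0.012), and the serine protease Tmprss2 was higher (0.45, adjusted p = 0.035; all genes: 9.34%).

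Most of the listed carriers of sugars, peptides and amino acids rose along the same axis, with 11 of 12 listed measured. In Ent-Pro against ISC 10 of 11 rose and 0 fell (all genes: 12.1% and 13.5%), led by the peptide carrier Slc15a1 (4.36), the glucose carrier Slc2a2 (3.69, 12.9-fold), and the amino acid carriers Slc7a9 (2.56) and Slc6a20a (2.44). In ENT against Ent-Pro 9 of 11 rose and 0 fell (all genes: 18.5% and 20.2%), led by the fructose carrier Slc2a5 (2.69), Slc2a2 (2.39) and Slc6a20a (2.37). Against Ent-Pro, DBZ Sec-Pro had 0 carriers higher and 2 lower (all genes: 8.84% and 9.77%), the glutamate carrier Slc1a1 (-2.28) and the amino acid carrier Slc7a8 (-1.51). DBZ Sec-Pro was below Rbpj Sec-Pro in 5 of 11 carriers (all genes: 7.08%) and above it in 0 (9.34%), among them Slc2a2 (-1.83, adjusted p = 0.012), Slc6a20a (-1.81, adjusted p = 0.047), Slc2a5 (-1.48, adjusted p = 0.0087) and Slc7a7 (-1.12, adjusted p = 0.041). The median of the 11 in that comparison was -1.03, against -0.68 for the 9 enzymes.

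Genes of the microvillus itself, 12 of 16 measured, rose in part in crypt progenitors and nearly all on the villus. In Ent-Pro against ISC 7 of 12 rose and 1 fell (all genes: 12.1% and 13.5%), including Pls1 (2.50, 5.66-fold) and Ezr (1.46), which encode actin-bundling fimbrin and the membrane linker ezrin, and the scaffold gene Pdzk1 (2.40), while Ush1c fell by 0.62. In ENT against Ent-Pro 11 of 12 rose and 0 fell (all genes: 18.5% and 20.2%), led by Pdzk1 (2.12), the protocadherin gene Cdhr5 (2.03), the actin-bundling gene Espn (2.01) and Eps8l2 (1.18). Against Rbpj Sec-Pro, DBZ Sec-Pro had 2 lower (all genes: 7.08%), Eps8l3 (-1.32) and Slc9a3r1 (-0.75). The median over the 12 was 0.63 in Ent-Pro against ISC and 0.96 in ENT against Ent-Pro.

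**Figure D4:**
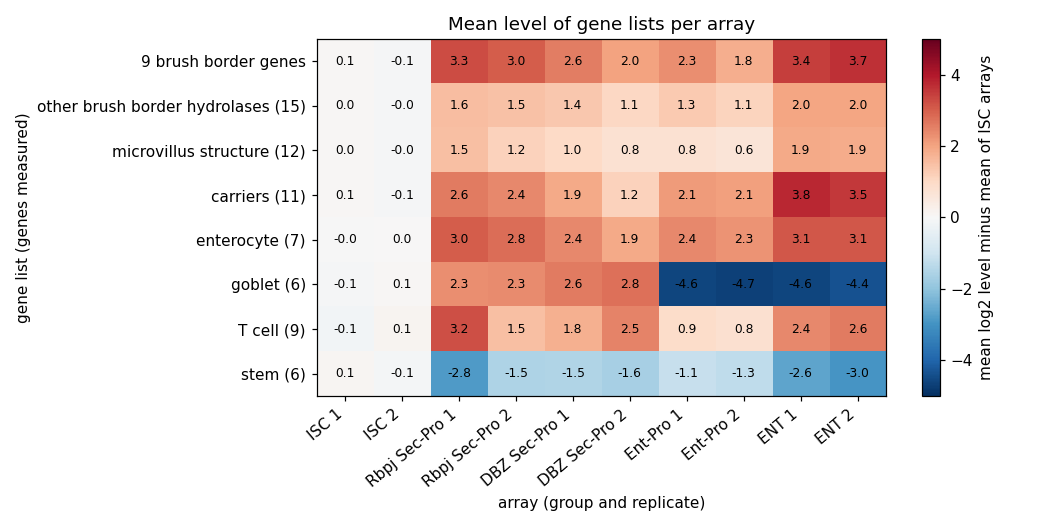
Mean log2 level of each gene list (vertical axis, with the number of genes measured) on each of the 10 arrays (horizontal axis), as a color scale of the difference from the mean of the 2 ISC arrays. The 9 enzymes reach 3.45 and 3.66 in ENT, 3.25 and 3.02 in Rbpj Sec-Pro, 2.58 and 2.01 in DBZ Sec-Pro, and 2.33 and 1.81 in Ent-Pro, while goblet markers run from -4.66 to 2.76.

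Of the transcription factors whose motifs were searched upstream, 7 of 9 listed were measured. In Ent-Pro against ISC (all genes: 12.1% higher, 13.5% lower) Hnf4g rose by 1.55 ± 0.32 (2.93-fold, adjusted p = 0.0077) and Cdx2 fell by 0.62 ± 0.12 (adjusted p = 0.0058). In ENT against Ent-Pro (all genes: 18.5% higher, 20.2% lower) Hnf4g (1.90, adjusted p = 0.0015), Gata5 (1.00) and Gata6 (0.87) rose and Cdx1 fell by 0.83 (adjusted p = 0.025). Between DBZ Sec-Pro and Rbpj Sec-Pro only Gata5 passed (0.57; all genes: 9.34% higher, 7.08% lower), and the median of the 7 was -0.06. Rbpj Sec-Pro against Ent-Pro had 0 of the 7 higher and 3 lower (all genes: 9.37% and 16.9%), Cdx1 (-1.07), Gata4 (-0.62) and Cdx2 (-0.54).

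The courses of the 9 genes over the arrays were compared by Pearson's r, given as a description because the arrays of a group share their source and all arrays share the ISC-to-villus span. Over 10 arrays Anpep and Mep1b correlated at 0.99, and at 0.96 over the 8 arrays without ISC. Ace and Treh correlated at 0.99 and, without ISC, at 0.97. Mep1b and Dpp4 gave 0.98 in either case, whereas Enpep and Lct went from 0.94 to 0.18 without ISC. The 2 meprin chains correlated at 0.60, and at 0.79 without ISC. Tmprss15 correlated with the other 8 genes at 0.52 to 0.77 over 10 arrays. Without ISC its r ran from 0.45 (Lct) to 0.88 (Dpp4).

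Among 3669 genes that varied between groups (SD of the 5 group means at least 0.5), the most alike by r over the 10 arrays differed from gene to gene. Anpep was nearest to Anxa2 (0.998), Slc25a24 and Cyp4f14, Mep1b to Pdcl3, Plpp1 and Anpep, and Enpep to the enterocyte genes Fabp1 (0.993) and Krt20 (0.991) and to Pls1. Ace was nearest to Bst1 (0.995), Lactb and Lmbrd1, Treh to Sult1b1 (0.994), Casp6 and Cox7a1, and Dpp4 to Rdh9 (0.993), Plekha1 and Itm2b. Lct was nearest to Selenop (0.983), Asah2 and Trappc4. Tmprss15 was nearest to Opn3 (0.978), Acaa1b and Ifit3. Mep1a had the least close neighbours, Plek (0.893), Iyd (0.856) and Plekhf1 (0.852).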

How the data were processed

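Total RNA of 5 groups of 2 mouse samples was hybridised to Affymetrix 430A 2.0 arrays. Values of 22690 probe sets were used on the log2 scale on which the authors deposited them; RMA and MAS5 are named in the submitters' processing notes, without role or version. Array medians lay between 6.83 and 6.98, and the deposited log2 values were used without further scaling. Names of probe sets came from the platform annotation: 20393 had 1 gene symbol, and the 691 with several symbols and the 1606 unnamed here were not used, nor were 64 control probe sets. A gene with several probe sets was read from the brightest on average, with no filter on dim genes.

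All arrays entered 1 limma 3.58.1 model (R 4.3.3; lmFit, eBayes) with 5 group means, 5 residual and 3.75 prior degrees of freedom, and p-values were adjusted by Benjamini-Hochberg over 12393 genes per comparison. The number of arrays limits the precision: an exact test of 2 arrays against 2 cannot go below p = 0.333. The fit was tested on simulated data. The members and gene lists were chosen with earlier results of these data known. Named genes were the members, up to 4 called genes per list with the largest change, and the 3 genes most like each member. A gene was near background where both arrays of a group read less than 1 (log2) above the TrpnX absent control. Promoter sequences are those of RefSeq (GRCm38.p6); the build behind the deposited values is not given in the sources used here. Alternatives were scaling, the probe set, a filter on dim genes, the prior, a 2-fold minimum, fits of each pair of groups alone, a replicate block, and leaving out each array.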

Additional observations from a re-analysis of the deposited data

Results flagged for a closer look

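Among the 9 genes, 2 differed between the 2 ways of obtaining secretory progenitors. The log2 difference of DBZ Sec-Pro against Rbpj Sec-Pro was -2.90 for Tmprss15 (adjusted p = 0.0018) and -1.11 for Treh (adjusted p = 0.017), each by the limma test of the difference itself. Of these calls, that of Treh was lost without DBZ Sec-Pro replicate 2 and with the 2 groups fitted alone. Against ISC, Tmprss15 measured 3.04 in Rbpj Sec-Pro and 0.14 in DBZ Sec-Pro, and Treh 3.42 and 2.31.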

How the results depend on the processing

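Of 90 differences (9 genes in 10 comparisons), 57 were called, 39 of these in each of the alternatives run, and 0 called differences changed sign. These totals were not counted over all genes, whose share called is given with each comparison above. The number called in Rbpj Sec-Pro against Ent-Pro went from 7 to 1 with the 2 groups fitted alone (all genes: from 3255 to 705 calls, 5.69%), to 3 at a minimum of 2-fold (6.72% of all genes), and to 1 to 6 with 1 array left out. For DBZ Sec-Pro against Rbpj Sec-Pro it went from 2 to 1 with the 2 groups alone (all genes: from 2036 to 97 calls, 0.783%) and to 1 to 6 with 1 array left out, and in ENT against DBZ Sec-Pro from 7 to 3 to 7. For DBZ Sec-Pro against Ent-Pro it went from 0 to 1 among genes above the median level, where 30.2% of all such genes were called. It also moved with some single arrays left out. The replicate block gave 1 in that comparison (16.9% of all genes) and changed no other count by over 1.5 times. The deviations of same-numbered arrays correlated between groups at -0.19 to 0.17, which shows no strong deviation shared along the replicate numbers. Such correlations cannot decide whether samples of different groups were paired. Where groups were fitted alone or lost an array, fewer degrees of freedom remained, and a lone array was assumed to vary like the others; the cause of other shifts was not tested. Differences that changed sign were all uncalled. With 1 array left out, Ent-Pro against ISC gave -0.99 to 0.22 for Mep1a and -0.17 to 0.31 for Tmprss15, and Rbpj Sec-Pro against Ent-Pro gave -0.10 to 0.99 for Lct. DBZ Sec-Pro against Ent-Pro gave -0.36 to 0.37 for Anpep, -0.16 to 0.48 for Ace, -0.18 to 0.30 for Tmprss15 and -0.022 to 1.06 for Lct, and DBZ Sec-Pro against Rbpj Sec-Pro -0.63 to 0.16 for Mep1a and -0.27 to 0.42 for Lct. DBZ Sec-Pro against ISC gave -0.014 to 0.28 for Tmprss15. ENT against Rbpj Sec-Pro gave -0.18 to 0.65 for Anpep, -0.28 to 0.24 for Enpep, -0.17 to 0.038 for Mep1a and -0.74 to 0.32 for Tmprss15, and ENT against DBZ Sec-Pro -0.22 to 0.56 for Mep1a and -0.092 to 0.60 for Lct. Centring arrays on their medians gave -0.070 for Anpep and -0.015 for Tmprss15 in DBZ Sec-Pro against Ent-Pro, and 0.16 for Enpep and 0.11 for Mep1a in ENT against Rbpj Sec-Pro. The dimmer Dpp4 probe set gave 0.46 in DBZ Sec-Pro against Rbpj Sec-Pro. Centring moved the median over all genes from -0.01 to 0.24 in ENT against ISC and from 0.12 to 0.30 in ENT against Rbpj Sec-Pro, and in the former raised the share of calls that were higher from 45.4% to 62.9%.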
